A study of Homo sapiens with 12 samples.

Results

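KHDRBS3 and 9 other genes for RNA-binding proteins that steer tissue-specific alternative splicing were followed through RNA-seq libraries of A549 and H1299, which are lung cancer cell lines of the non-small-cell type. The 10 genes, KHDRBS1, KHDRBS2, KHDRBS3, QKI, ESRP1, ESRP2, RBFOX2, MBNL1, MBNL2 and MBNL3, were taken by symbol from tables of 26535 features. KHDRBS3 was picked because it had fallen strongly with VGF in A549 in earlier results of the same data, and the others are its relatives or splicing regulators of similar standing. Each line carried a lentivirus that overexpresses VGF, which encodes a secreted neuroendocrine precursor protein, or an empty vector, with 3 libraries in each of the 4 groups. The groups were H1299 with VGF, H1299 with empty vector, A549 with VGF and A549 with empty vector, all labelled as wild type, and the replicates were described by the submitters as biologically independent. H1299 cells were grown in RPMI-1640 and A549 cells in DMEM/F12, so each comparison of the lines includes the medium.

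Alternative splicing joins different sets of exons from the same gene, and proteins that bind the pre-mRNA beside an exon decide whether it is kept. KHDRBS1 (Sam68), KHDRBS2 (SLM1), KHDRBS3 (SLM2 or T-STAR) and QKI (Quaking) belong to the STAR family of RNA-binding proteins. ESRP1 and ESRP2 drive epithelial exon choices, for instance in FGFR2 and CD44, RBFOX2 binds near exons used in brain, muscle and mesenchymal cells, and the muscleblind proteins MBNL1, MBNL2 and MBNL3 shift exons toward adult patterns in muscle, heart and brain.

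Library totals ran from 31378171 to 41919484 counts. VGF itself was higher with the VGF vector in both lines, with log2 fold changes of 3.52 in H1299 and 9.04 in A549 (edgeR, adjusted p = 1.12e-09 and 6.1e-13). Among 6 lung adenocarcinoma and alveolar markers, KRT7 had 30 to 51 counts in H1299 with VGF and 29 to 90 in H1299 with empty vector, against 35895 to 43030 in A549 with VGF and 34824 to 36500 in A549 with empty vector. SFTPB, SFTPA1 and SFTPC, the surfactant genes of that list, had at most 14 counts in any library, and the transcription factor gene NKX2-1 had at most 16. A549 VGF replicate 2 stood apart. Its 18 endothelial markers, all with a count, summed to 24019 counts or 614 CPM (counts scaled to the library total), against 2683 to 3403 counts or 80.7 to 97.9 CPM in the other A549 libraries and 1220 to 1481 counts or 30.2 to 34.9 CPM in H1299 libraries. The log2 fold changes of KHDRBS3 and QKI in A549 are given with and without it. So are the differences of KHDRBS3 and MBNL1 and the call of ESRP2 between the lines with VGF. Other values for A549 with VGF include it unless stated. The summed CPM of the other marker lists, in H1299 and in A549 libraries, was 1.5 to 2.39 and 24.3 to 30.5 for 8 fibroblast genes, 271 to 339 and 340.0 to 385 for 8 neuron genes, 2.86 to 4.31 and 3.02 to 4.96 for 8 muscle genes, and 103 to 120.0 and 66.6 to 94.3 for 8 blood and immune genes.

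Of the 10 genes, 9 had counts and passed the filter on low counts. KHDRBS2, the relative of KHDRBS3 known mainly from brain, had 0 counts in all 12 libraries, which allows up to 0.0244 CPM in H1299 with VGF, 0.0231 in H1299 with empty vector, 0.0291 in A549 with VGF and 0.0297 in A549 with empty vector at a floor of 3 counts over each group. Levels are given below as CPM scaled by TMM factors when a gene is compared between libraries, and as FPKM, which is scaled by length, when genes are compared with each other. In these bulk libraries, fewer cells that express a gene and less RNA per cell cannot be told apart.

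Per length, KHDRBS1 stood first and MBNL1 second in all 4 groups. KHDRBS1 averaged 93.1 FPKM in H1299 with VGF and 93.9 in H1299 with empty vector, against 50.1 in A549 with VGF and 45.7 in A549 with empty vector. MBNL1 averaged 37.7 and 40.8 FPKM in H1299 with VGF and with empty vector, against 37.0 and 37.6 FPKM in A549 with VGF and with empty vector. The order below them differed between the lines. In H1299, QKI came next, at 25.6 FPKM with VGF and 25.0 with empty vector, ahead of RBFOX2 at 23.0 and 23.6 FPKM, and the libraries of these genes overlapped under the empty vector but not under VGF. MBNL2 followed at 2.37 FPKM with VGF and 2.70 with empty vector. In A549, MBNL2 came directly after MBNL1, at 24.2 FPKM with VGF and 23.65 with empty vector. RBFOX2 followed at 18.2 and 17.35 FPKM and QKI at 14.1 and 12.8 FPKM. RBFOX2 and QKI did not overlap under the empty vector. Under VGF they overlapped only through A549 VGF replicate 2, where QKI was 17.89 FPKM, against 11.97 and 12.39 in replicates 1 and 3. The lowest RBFOX2 value there was 17.85 FPKM. KHDRBS3 was sixth in A549, at 1.07 FPKM with VGF and 7.35 with empty vector. In H1299 it stood among the genes under 1 FPKM, and its libraries overlapped those of ESRP1 under both vectors and those of MBNL3 under the empty vector.

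**Figure D1:**
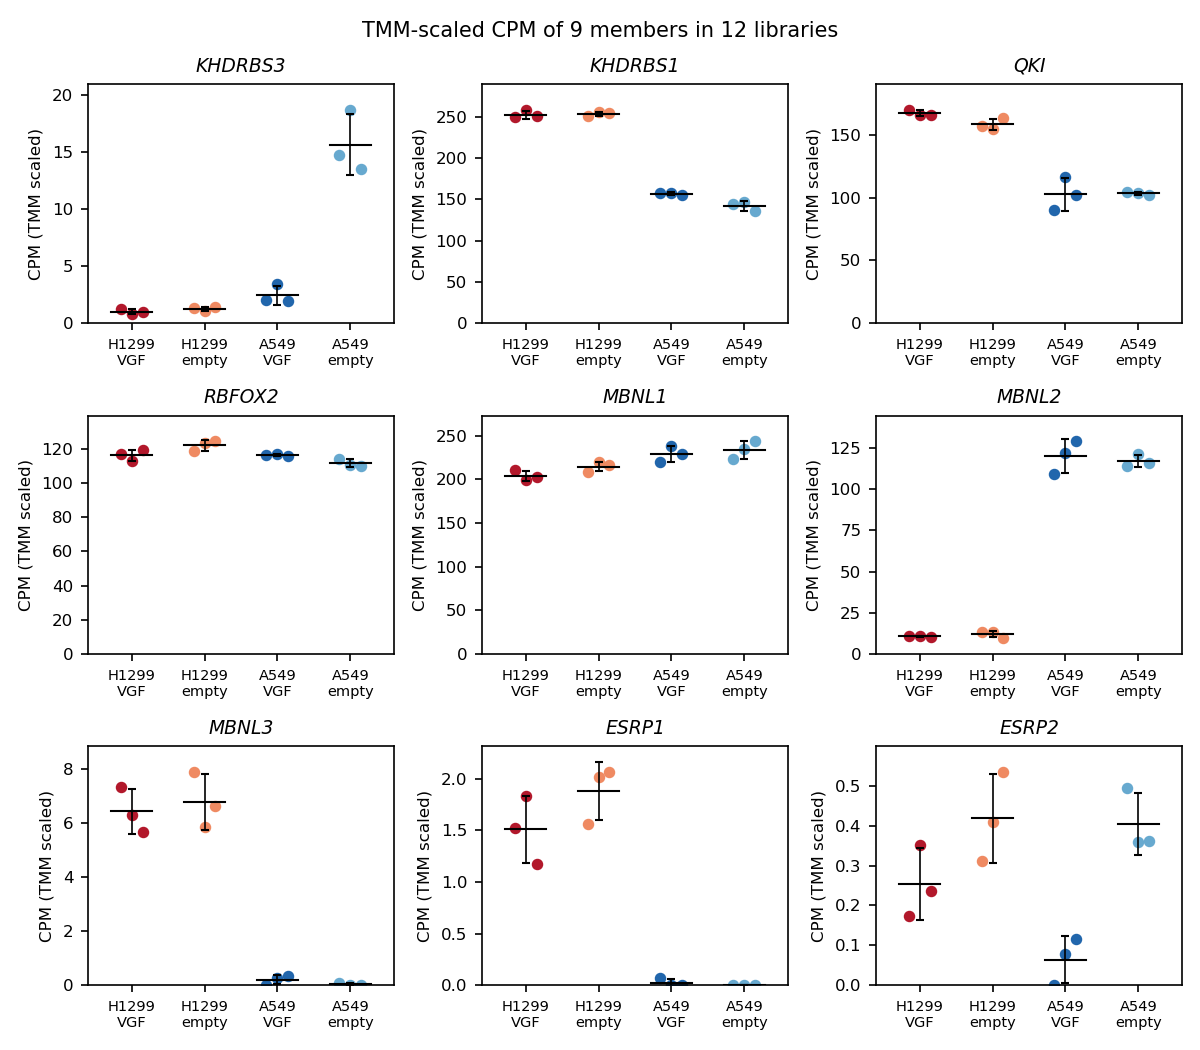
CPM, scaled by TMM factors, of 9 members in the 12 libraries, 1 panel a gene, each with its own axis from 0. Points are libraries, the horizontal line is the mean and the bar the SD of 3 libraries. KHDRBS3 is high only in A549 with empty vector, MBNL2 is low in H1299, and MBNL3 and ESRP1 are near 0 in A549.

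KHDRBS3 (ENSG00000131773, GRCh38 chromosome 8, 135457457 to 135656722, plus strand) encodes an RNA-binding protein best known in mouse brain, where it controls a neurexin exon. Its counts were 58, 133 and 66 in the A549 VGF libraries, against 507, 627 and 451 in the A549 empty vector libraries. These correspond to 1.98, 3.40 and 1.90 CPM with VGF, against 14.8, 18.7 and 13.6 CPM with empty vector. The groups were far apart, and replicate 2 was the highest library in each. The mean was 2.43 ± 0.844 CPM with VGF and 15.7 ± 2.70 CPM with empty vector (SD, n = 3 each), and the log2 fold change was -2.68 (SE 0.266). The gene was chosen for this fall, so the value is a description and no test is given. A549 VGF replicate 2, the library with endothelial transcripts, held the most KHDRBS3 of its group, and without it the log2 fold change was -3.01. On the FPKM scale the A549 means were 1.07 ± 0.387 with VGF and 7.35 ± 1.31 with empty vector.

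In H1299, whose libraries played no part in that choice, KHDRBS3 was low with either vector. It had 50, 31 and 41 counts in the VGF libraries, or 1.23, 0.778 and 0.967 CPM, against 60, 47 and 57 counts, or 1.34, 1.07 and 1.39 CPM, in the empty vector libraries. The libraries overlapped. The log2 fold change was -0.35 (SE 0.275, 95% interval -0.94 to 0.25, edgeR adjusted p = 0.873), which did not pass the threshold of 0.05 on the adjusted p used throughout. That interval is not set against the -2.68 measured in A549, because the gene was chosen for that value. The effect in H1299 minus that in A549 was 2.34 on the log2 scale, again a description because it contains the A549 libraries.

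KHDRBS3 was also lower in H1299 than in A549 under each vector. With VGF it averaged 0.992 ± 0.228 CPM in H1299 and 2.43 ± 0.844 CPM in A549, a log2 difference of -1.29 (SE 0.272), and -0.95 without A549 VGF replicate 2. With empty vector it averaged 1.26 ± 0.172 CPM in H1299 and 15.7 ± 2.70 CPM in A549, a log2 difference of -3.63 (SE 0.279). Both comparisons use A549 libraries whose values chose the gene, so these differences are descriptions and no test is given. Ordered by CPM, the lowest groups were H1299 with VGF and H1299 with empty vector, which overlapped. A549 with VGF and then A549 with empty vector followed, with no overlap at these steps. On FPKM, H1299 empty vector replicate 1, at 0.883, lay above A549 VGF replicates 1 and 3, at 0.876 and 0.826. On log2(FPKM + 1) the difference between the lines was -0.435 with VGF and -2.273 with empty vector.

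KHDRBS1 (ENSG00000121774, chromosome 1, 32013829 to 32060850, plus strand), a broadly expressed relative that couples signalling to splicing, had 157, 158 and 155 CPM in the A549 VGF libraries, against 144, 147 and 135.5 CPM in the A549 empty vector libraries. All VGF libraries lay above all empty vector libraries, by a small amount. The log2 fold change was 0.14 (SE 0.0397, adjusted p = 0.125 with edgeR), which missed the threshold, while DESeq2 gave 0.15 with an adjusted p of 0.0118. In H1299 the libraries overlapped, at 249.6, 259 and 251 CPM with VGF, against 251, 256 and 255 CPM with empty vector (log2 fold change -0.004, 95% interval -0.09 to 0.08, adjusted p = 1.0). KHDRBS1 was higher in H1299 than in A549 under both vectors, by 0.69 (SE 0.0396, adjusted p = 3.4e-09) with VGF and by 0.84 (SE 0.0397, adjusted p = 5.03e-10) with empty vector on the log2 scale.

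QKI (ENSG00000112531, chromosome 6, 163414000 to 163578596, plus strand), needed for myelination in mice and active in mesenchymal splicing, had 90.1, 116.5 and 102 CPM in the A549 VGF libraries, against 105, 103.5 and 102 CPM in the A549 empty vector libraries. The VGF libraries spread on both sides of the empty vector libraries, and the highest was the library with endothelial transcripts. The log2 fold change was -0.01 (SE 0.0717, adjusted p = 1.0), and -0.11 (adjusted p = 0.57) without that library. In H1299 QKI had 169.9, 166 and 166 CPM with VGF, against 157.5, 155 and 163 CPM with empty vector. Those groups did not overlap, but the log2 fold change of 0.08 (SE 0.0706, 95% interval -0.07 to 0.23) had an adjusted p of 0.908. QKI was higher in H1299 than in A549, by 0.70 (SE 0.0715, adjusted p = 1.07e-06) with VGF and by 0.62 (SE 0.0714, adjusted p = 3.84e-06) with empty vector on the log2 scale. SF1, the branch point binding protein and a more distant relative, differed in the same direction by 0.16 (adjusted p = 0.0323) with VGF and 0.21 (adjusted p = 0.00718) with empty vector. Of the 4 tested members of the 5-gene STAR family list, 0 were called with VGF in H1299, beside 0.011% of all features, and 1 in A549, beside 0.79%. That 1 was KHDRBS3, which was chosen for it. Between the lines, 3 were higher and 1, again KHDRBS3, was lower in H1299 under each vector, beside 77.3% of all features called in either direction with VGF and 77.2% with empty vector. The SF1 difference with VGF was not called without A549 VGF replicate 1 (adjusted p = 0.09) or without H1299 VGF replicate 3 (adjusted p = 0.158).

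Few members were called with VGF. In H1299, 0 of 9 members were called with edgeR, where 0.011% of all features tested were called, and 0 had an unadjusted p under 0.05, where 7.8% of all features did. DESeq2 and limma voom also called 0 of 9 there. QKI was the member whose H1299 libraries did not overlap, 1 of 9 beside 12.7% of all features. In A549, 1 of 9 was called, beside 0.79% of all features, and this was KHDRBS3, chosen for it. There 4 of 9 had an unadjusted p under 0.05, namely KHDRBS1, KHDRBS3, ESRP2 and MBNL3. The share of all features at that threshold was not computed for A549, so nothing is read from such A549 counts, here or in the lists below. In the difference of the effects 1 of 9 was called, again KHDRBS3, beside 0.159% of all features, and nothing is read from it. The libraries of 4 of 9 members, KHDRBS1, KHDRBS3, RBFOX2 and ESRP2, did not overlap in A549, beside 18.4% of all features. The median log2 fold change over the 9 members was -0.08 in H1299 and 0.04 in A549, beside -0.01 and 0.00 over all features tested.

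**Figure D2:**
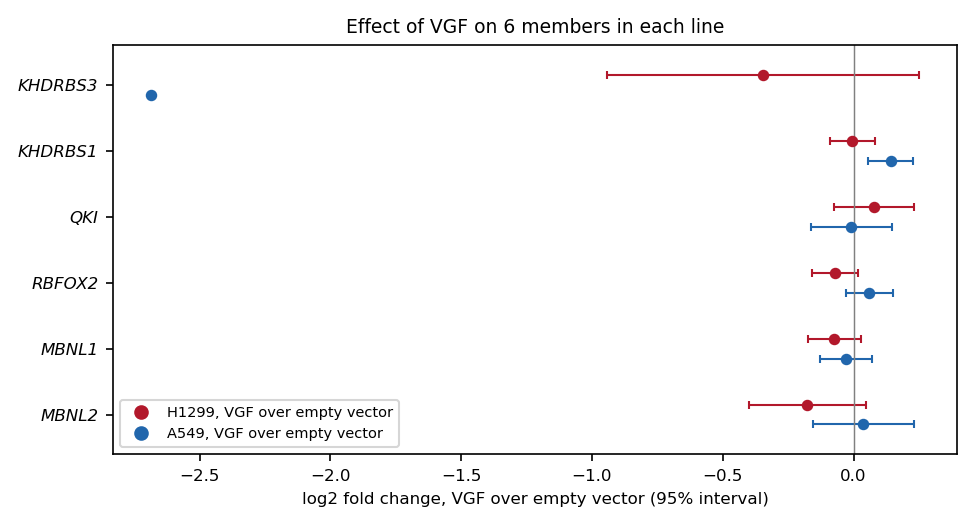
Log2 fold change of VGF over empty vector (horizontal axis) in H1299 and A549 for the 6 members with more than 30 counts in each group, with 95% intervals. The A549 value of KHDRBS3 is drawn without an interval, because the gene was chosen on it. It stands at -2.68, and the other points lie between -0.35 and 0.14.

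RBFOX2 (ENSG00000100320, chromosome 22, 35738736 to 36028425, minus strand), a regulator of neuronal, muscle and mesenchymal exons, had 116, 117 and 116 CPM in the A549 VGF libraries, against 114, 110.3 and 109.9 CPM in the A549 empty vector libraries. The groups lay side by side without overlap, and the log2 fold change was 0.06 (SE 0.0409, adjusted p = 0.57). In H1299 RBFOX2 had 117, 113 and 119 CPM with VGF, against 118.5, 123 and 124.5 CPM with empty vector. Those libraries overlapped, and the log2 fold change was -0.07 (SE 0.0406, 95% interval -0.16 to 0.02, adjusted p = 0.743).

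The RBFOX2 difference between the lines varied with the unit and with the scaling of counts. On counts the log2 difference, H1299 over A549, was 0.00 (SE 0.0408, adjusted p = 0.993) with VGF and 0.13 (SE 0.0408, adjusted p = 0.00996) with empty vector. Upper-quartile scaling of the counts gave 0.12 (edgeR adjusted p = 0.0136) with VGF and 0.24 (edgeR adjusted p = 0.000114) with empty vector. It moved the median of all features to 0.11 under each vector. With limma on log2(FPKM + 1) it was 0.33 (adjusted p = 1.38e-05) with VGF and 0.42 (adjusted p = 1.19e-06) with empty vector. The median of all features also moved on that FPKM scale, to 0.11 with VGF and 0.12 with empty vector, against -0.01 and 0.01 on counts. Dividing counts by FPKM and library total gives the gene length that the FPKM values imply. For RBFOX2 it was 5321 to 5705 bases in H1299 and 5845 to 6087 bases in A549, with no overlap. For comparison it was 2888 to 2939 bases for KHDRBS1 over all 12 libraries. Of 10456 features with at least 100 counts in every library, 17.9% had implied lengths that did not overlap between the lines with VGF and 19.0% with empty vector. How the authors set gene length is not given in the sources used here, and its part in the difference was not tested.

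**Figure D3:**
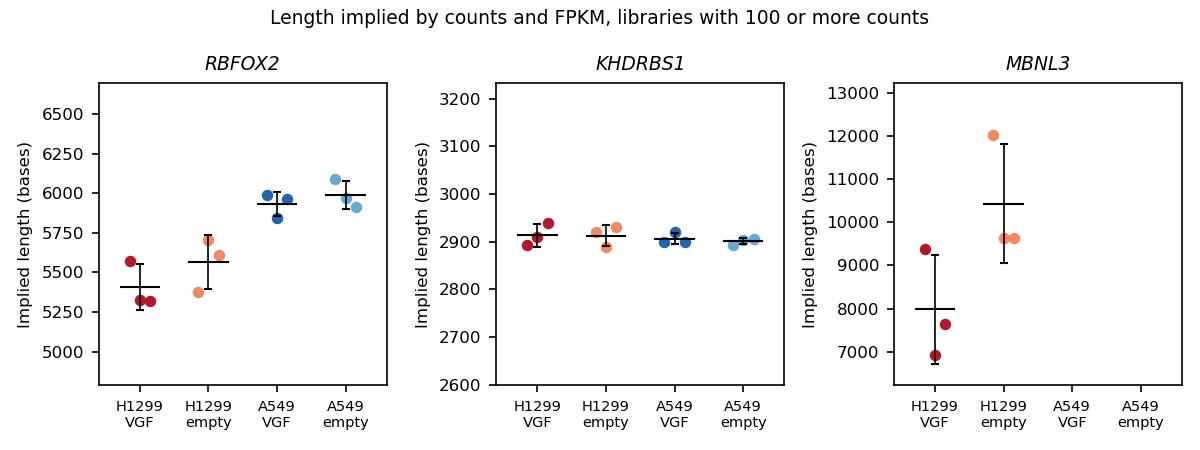
Gene length in bases implied by counts, FPKM and library total, for RBFOX2, KHDRBS1 and MBNL3, in libraries with at least 100 counts of the gene. Points are libraries, lines the mean and bars the SD of 3 libraries, and the vertical axes do not start at 0. RBFOX2 is lower in H1299 than in A549, KHDRBS1 stays between 2888 and 2939 bases, and MBNL3 could be drawn for H1299 only.

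Wide differences between the lines were found among the muscleblind genes. MBNL2 (ENSG00000139793, chromosome 13, 97221434 to 97394120, plus strand), prominent in brain, had 10.7, 10.9 and 10.4 CPM in the H1299 VGF libraries, against 109, 122 and 129 CPM in the A549 VGF libraries. With empty vector it had 13.1, 13.2 and 9.85 CPM in H1299, against 114, 121 and 116 CPM in A549. No H1299 library came near any A549 library. MBNL2 was 11.2-fold lower in H1299 with VGF (log2 difference -3.49, SE 0.102, adjusted p = 4.67e-12) and 9.69-fold lower with empty vector (log2 difference -3.28, SE 0.1, adjusted p = 7.19e-12). VGF left no called change in either line, with log2 fold changes of -0.18 (SE 0.103, 95% interval -0.40 to 0.05) in H1299 and 0.04 (SE 0.0885, 95% interval -0.15 to 0.23) in A549 and adjusted p of 0.753 and 0.939.

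MBNL3 (ENSG00000076770, chromosome X, 132369317 to 132489968, minus strand), described in mice as holding back muscle differentiation, ran the other way. It had 297, 251 and 240 counts in the H1299 VGF libraries, against 0, 10 and 11 counts in the A549 VGF libraries. With empty vector it had 353, 257 and 272 counts in H1299, against 3, 0 and 0 counts in A549. Every H1299 library was far above every A549 library. Summed over libraries, the ratio of H1299 to A549 was 31.5 (exact 95% interval 20.5 to 51.2) with VGF and 229 (77.9 to 1110.0) with empty vector, for counting error only. Both differences were called. MBNL3 passed the filter on low counts only through its H1299 libraries, so these calls are descriptions and no p is given. Within A549, the 21 counts with VGF against 3 with empty vector gave a ratio of 6.86 (2.05 to 35.9, counting error only), and edgeR did not call the change (adjusted p = 0.268). In H1299 the libraries overlapped and the log2 fold change was -0.08 (SE 0.465, adjusted p = 1.0). The length implied by FPKM was 6918 to 9386 bases in H1299 with VGF and 9627 to 12028 bases in H1299 with empty vector, so that MBNL3 was 0.868 ± 0.1 FPKM with VGF and 0.699 ± 0.0529 FPKM with empty vector.

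RefSeq promoters were matched by symbol for 5 of the 10 members. Those of MBNL2 and MBNL3 are shown because these related genes differed strongly between the lines in opposite directions. For each, the RefSeq start nearest the GENCODE gene start was taken, from 250 bases before it to 50 after it, in assembly GRCh38.p14, and capitals mark CpG, the letters CG, which read the same on both strands. The MBNL2 promoter is chr13:97222083-97222382, plus strand, and the MBNL3 promoter is chrX:132489986-132490285, minus strand. The RefSeq start taken lies 899 bases from the GENCODE gene start for MBNL2 and 67 for MBNL3, and neither window contains the GENCODE start.
MBNL2: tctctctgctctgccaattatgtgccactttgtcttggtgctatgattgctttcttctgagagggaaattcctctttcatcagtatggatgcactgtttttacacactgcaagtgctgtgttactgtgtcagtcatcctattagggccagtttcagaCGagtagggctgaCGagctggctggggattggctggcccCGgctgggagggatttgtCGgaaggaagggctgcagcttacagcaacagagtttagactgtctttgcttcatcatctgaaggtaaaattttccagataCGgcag
MBNL3: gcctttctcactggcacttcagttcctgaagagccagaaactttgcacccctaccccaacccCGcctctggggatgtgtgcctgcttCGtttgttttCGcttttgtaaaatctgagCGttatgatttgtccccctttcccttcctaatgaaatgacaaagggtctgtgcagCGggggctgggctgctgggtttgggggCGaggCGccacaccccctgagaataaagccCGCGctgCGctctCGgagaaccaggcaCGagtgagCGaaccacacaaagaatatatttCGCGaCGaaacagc
The MBNL2 window held 5 CpG at 48.3% G and C, and the MBNL3 window held 16 CpG at 55.0% G and C. Over all 35116 promoters in the RefSeq table, the median was 14 CpG and 58.7% G and C, and 96.0% held at least 1 CpG. Fewer CpG than in the MBNL2 window were found in 29.6% of the promoters, and fewer than in the MBNL3 window in 52.5%. RefSeq lists 2 starts for MBNL2 and 4 for MBNL3, and which of them these lines use was not tested.

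MBNL1 (ENSG00000152601, chromosome 3, 152243828 to 152465780, plus strand), the most widely expressed muscleblind gene, varied far less. It had 210.5, 199.6 and 202 CPM in the H1299 VGF libraries, against 220.2, 238 and 229 CPM in the A549 VGF libraries. With empty vector it had 209, 219.7 and 216 CPM in H1299, against 223, 235 and 244 CPM in A549. The H1299 libraries lay below the A549 libraries under each vector, with log2 differences of -0.17 (SE 0.0464, adjusted p = 0.00513) with VGF and -0.12 (SE 0.0463, adjusted p = 0.0272) with empty vector, but the direction turned on log2(FPKM + 1), to 0.03 (adjusted p = 0.616) with VGF and 0.11 (adjusted p = 0.0525) with empty vector. Without A549 VGF replicate 2 the log2 difference with VGF was -0.12 (edgeR adjusted p = 0.0481). The call under the empty vector was lost without A549 empty vector replicate 2 (adjusted p = 0.0927) or 3 (0.113) and without H1299 empty vector replicate 1 (0.107) or 3 (0.0531). VGF gave log2 fold changes of -0.07 (SE 0.0463, adjusted p = 0.784) in H1299 and -0.03 (SE 0.0464, adjusted p = 0.882) in A549. Antisense annotation overlaps 15.6% of the exonic bases of MBNL1, and whether counting used strand is not given in the sources used here, so reads of MBNL1 and of its antisense partners may not be separated.

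Added per length, the 3 muscleblind genes made 41.0 ± 1.55 FPKM in H1299 with VGF and 44.2 ± 1.56 FPKM in H1299 with empty vector, against 61.2 ± 3.82 FPKM in A549 with VGF and 61.2 ± 1.30 FPKM in A549 with empty vector. MBNL1 supplied 92.1% and 92.3% of the sum in H1299 with VGF and with empty vector, against 60.5% and 61.4% in A549 with VGF and with empty vector. MBNL2 supplied 5.79% and 6.13% in H1299, against 39.5% and 38.6% in A549. MBNL3 reached 2.12% in H1299 with VGF and 1.58% with empty vector, against 0.0473% in A549 with VGF and 0.00253% with empty vector. Of the 3 genes, MBNL2 had the largest difference in mean FPKM between the lines under each vector.

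**Figure D4:**
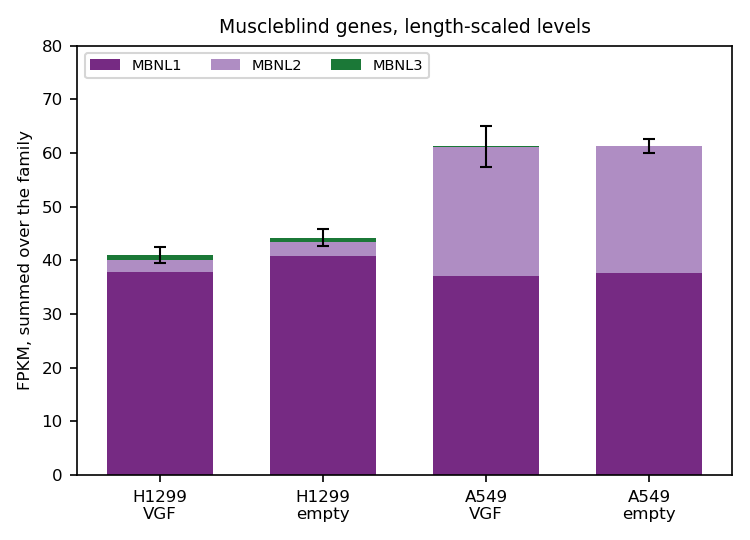
Mean FPKM of MBNL1, MBNL2 and MBNL3, stacked, in the 4 groups. The error bar is the SD of the summed FPKM over 3 libraries. The MBNL1 segment is similar in all groups, and the MBNL2 segment is thin in H1299 and thick in A549.

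ESRP1 (ENSG00000104413, chromosome 8, 94641074 to 94707466, plus strand), an epithelial splicing factor, was found in H1299 and was almost absent from A549. It had 62, 73 and 50 counts in the H1299 VGF libraries, against 2, 0 and 0 counts in the A549 VGF libraries. With empty vector it had 70, 89 and 85 counts in H1299, against 0 in all 3 A549 libraries. The ratio of H1299 to A549 was 77.6 (exact 95% interval 21.2 to 646.0, counting error only) with VGF and at least 63.4-fold with empty vector, set against the floor of 3 counts over the group. Both differences were called. ESRP1 passed the filter on low counts only through its H1299 libraries, so these calls are descriptions and no p is given. Within H1299, ESRP1 averaged 1.51 ± 0.326 CPM with VGF and 1.88 ± 0.279 CPM with empty vector, which overlapped (log2 fold change -0.32, SE 0.485, adjusted p = 0.995). Even in H1299 the level was low, at 0.406 FPKM with VGF and 0.503 FPKM with empty vector.

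ESRP2 (ENSG00000103067, chromosome 16, 68229111 to 68238102, minus strand), its paralog, was near the limit of detection throughout. It had 0, 3 and 4 counts in the A549 VGF libraries, against 17, 12 and 12 counts in the A549 empty vector libraries. The groups did not overlap, and the ratio of VGF to empty vector was 0.167 (exact 95% interval 0.0634 to 0.377, counting error only), but edgeR did not call it (adjusted p = 0.143) and DESeq2 gave an adjusted p of 0.0542. In H1299 it had 7, 14 and 10 counts with VGF, against 14, 18 and 22 counts with empty vector, which touched at 14 (log2 fold change -0.72, SE 0.644, adjusted p = 0.91). Between the lines ESRP2 had a log2 difference of 1.88 (SE 0.753, adjusted p = 0.0362) with VGF and 0.05 (SE 0.635, adjusted p = 0.951) with empty vector. The call with VGF was lost in 9 of the 12 fits that left out a library, with the adjusted p reaching 0.117 without H1299 VGF replicate 2, 0.0951 without A549 VGF replicate 1, 0.0723 without A549 VGF replicate 2 and 0.0626 without H1299 VGF replicate 3. It was 0.0507 to 0.0537 without A549 empty vector replicates 1, 2 or 3 or H1299 empty vector replicates 2 or 3.

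Between the lines, 8 of 9 members were called under each vector, 5 higher and 3 lower in H1299, beside 77.3% of all features called with VGF and 77.2% with empty vector. Of all features, 38.2% were called higher and 39.1% lower with VGF, and 38.5% higher and 38.6% lower with empty vector. The libraries of 8 of 9 did not overlap under each vector, beside 79.5% of all features with VGF and 81.0% with empty vector, so both shares lie near those of all features. KHDRBS3, chosen on its A549 values, is counted among them, and nothing is read from its part. MBNL3 and ESRP1, which passed the filter on low counts only through H1299, are counted too, and their calls are descriptions. KHDRBS1, QKI, MBNL3 and ESRP1 were higher in H1299 under both vectors, and KHDRBS3, MBNL1 and MBNL2 were lower, with the direction of MBNL1 turning on FPKM. ESRP2 was the remaining call with VGF and RBFOX2 with empty vector. Without A549 VGF replicate 2, 7 of 9 were called with VGF, as ESRP2 was lost.

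**Figure D5:**
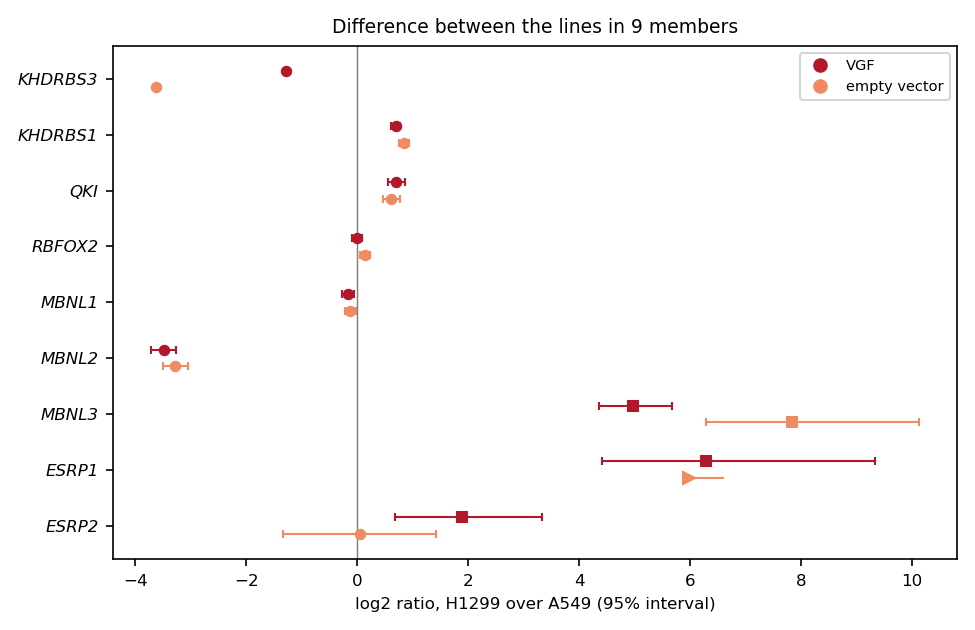
Log2 ratio of H1299 over A549 (horizontal axis) with VGF and with empty vector for 9 members. Circles are edgeR fold changes with 95% intervals, squares are ratios of summed counts with exact intervals for counting error, and the triangle is the lower bound for ESRP1, which had 0 counts in A549 with empty vector. KHDRBS3 is drawn without intervals, because the gene was chosen on its A549 values. MBNL2 and KHDRBS3 lie left of 0 and MBNL3 and ESRP1 far to the right.

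Most epithelial genes tested in the same libraries were lower in H1299, where ESRP1 was higher. CDH1, the epithelial cadherin, had 0 counts in all 6 H1299 libraries, against 88.8 CPM in A549 with VGF and 84.4 CPM in A549 with empty vector. Of 9 tested genes among 14 epithelial genes and their activators, 1 was higher and 8 were lower in H1299 with VGF, beside 38.2% and 39.1% of all features, and 1 was higher and 6 were lower with empty vector, beside 38.5% and 38.6%. Those lower included KRT8, an epithelial keratin, at 471 CPM in H1299 and 3700.0 CPM in A549 with empty vector. They also included CDH1 and ELF3, which passed the filter on low counts only through A549, so their calls are descriptions. OCLN, a tight junction gene, was the higher member, by 0.17 to 0.32 on the log2 scale when libraries were left out in turn, and its call was lost in 6 of 12 such fits with VGF and in 2 of 12 with empty vector. On log2(FPKM + 1) OCLN was not called, and its direction turned with VGF, at -0.07 (limma adjusted p = 0.732) with VGF and 0.24 (adjusted p = 0.234) with empty vector. Without a filter on low counts its adjusted p with VGF was 0.0551 with edgeR. GRHL2, a known activator of epithelial genes, had 0 counts in all 12 libraries. Of 9 mesenchymal regulators, 4 were higher and 3 lower in H1299 with VGF, and 5 and 3 with empty vector, beside the same shares of all features. VIM, an intermediate filament of mesenchymal cells, averaged 6070.0 CPM in H1299 and 1360.0 CPM in A549 with VGF, and TWIST1 and ZEB1, transcription factor genes, were higher in H1299 too. Those lower were FN1, the fibronectin gene, at 53.3 CPM in H1299 and 4870.0 CPM in A549 with VGF, SNAI1 at 0.475 and 10.8 CPM, and TWIST2 at 3.58 and 17.9 CPM. With VGF over empty vector, edgeR called 0 genes of either list in either line, beside 0.011% of all features in H1299 and 0.79% in A549. At an unadjusted p under 0.05 there were 1 epithelial and 2 mesenchymal genes in H1299 and 2 and 4 in A549. DESeq2 called 0 of both lists in H1299 and 1 of each in A549, KRT18 and CDH2, and limma voom called 1 epithelial gene in A549.

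Among other tissue-specific splicing regulators, 26 were listed and 19 tested. With VGF, edgeR called 0 in H1299 or in A549, beside 0.011% and 0.79% of all features. At an unadjusted p under 0.05 there were 0 in H1299 and 5 in A549. DESeq2 called 0 in H1299 and 1 in A549 (PTBP3), and limma voom 0 in both. Between the lines 6 were higher and 9 lower in H1299 with VGF, beside 38.2% and 39.1% of all features, and 6 and 6 with empty vector, beside 38.5% and 38.6%. RBFOX3, the neuronal paralog of RBFOX2 whose protein is the NeuN marker, had 3 counts over the 3 H1299 VGF libraries and 4 over the H1299 empty vector libraries. In A549 it had 64.8 CPM with VGF and 65.5 CPM with empty vector. RBFOX3 passed the filter on low counts only through A549, so its calls between the lines are descriptions. RBM47, an epithelial RNA-binding protein, averaged 0.545 CPM in H1299 with VGF and 0.696 CPM in H1299 with empty vector, against 152 and 155 CPM in A549. SRRM3, a regulator of neuronal microexons, averaged 1.11 CPM in H1299 and 11.2 CPM in A549 with VGF (log2 difference -3.33, SE 0.177, adjusted p = 1.54e-09). Among the higher ones, ZFP36L1 differed by 0.70 (SE 0.083, adjusted p = 4.67e-06) with VGF, and RBM20, a cardiac titin splicing factor, averaged 2.06 CPM in H1299 and 0.727 CPM in A549 with VGF (adjusted p = 0.00149).

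The general splicing machinery held 1 called gene with VGF. Of 49 broadly expressed splicing regulators, edgeR called 0 in H1299 and 1 in A549, lower. There 3 and 9 had an unadjusted p under 0.05, and DESeq2 called 0 and 5. Over all features, edgeR called 0.011% in H1299 and 0.79% in A549, and DESeq2 called 139 and 729 features. The edgeR call was SRSF5, an SR protein, at 152, 158 and 153 CPM with VGF in A549. With empty vector it had 182, 177.5 and 189.9 CPM, with no overlap. Its log2 fold change was -0.25 (SE 0.0402, adjusted p = 0.0167), and the call was lost without A549 empty vector replicate 1 (adjusted p = 0.0574) or 3 (0.0544) or A549 VGF replicate 3 (0.0598), with the replicate block (0.0914) and, with limma, on FPKM with a pseudocount of 0.1 (0.0645) or without a filter (0.0567). Of 35 spliceosome core genes, edgeR, DESeq2 and limma voom called 0 in either line, and 4 in H1299 and 6 in A549 had an unadjusted p under 0.05. Between the lines, 37 of the 49 broadly expressed regulators were higher and 7 lower in H1299 under each vector, beside 38.2% and 39.1% of all features with VGF and 38.5% and 38.6% with empty vector, with a median log2 difference of 0.39 with VGF and 0.36 with empty vector, beside -0.01 and 0.01 over all features. Of the core genes, 19 were higher and 7 lower with VGF, and 18 and 9 with empty vector. SNRPD2, a core snRNP protein, averaged 383 CPM in H1299 and 125 CPM in A549 with VGF, while SNRNP70, of the U1 particle, averaged 161 CPM in H1299 and 301 CPM in A549 with VGF.

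Genes whose exons the members are known to control were read at the gene level, since the tables hold no exon or junction counts. Of 25, 23 were tested. With VGF, edgeR called 0 in H1299 and 1 in A549, beside 0.011% and 0.79% of all features. There 3 and 5 had an unadjusted p under 0.05. DESeq2 called 2 in H1299 (INSR and NRXN3) and 3 in A549, beside 139 and 729 of all features. The edgeR call was CD44, whose log2 fold change of -0.16 (SE 0.0313, adjusted p = 0.0401) was not called in 11 of the 12 fits that left out a library, with adjusted p of 0.0548 to 0.114. The exception was the fit without H1299 VGF replicate 3. The call was also lost without a filter on low counts (0.069), with the line alone (0.0994), with the replicate block (0.117) and, with limma, on FPKM (0.469 to 0.545). Between the lines 3 were higher and 14 lower in H1299 with VGF, and 5 and 14 with empty vector, beside the shares of all features given for the broadly expressed regulators. NRXN3, a neurexin gene whose relatives carry the exon controlled by KHDRBS3 in mice, had 0 counts in all 3 H1299 VGF libraries, against 256, 395 and 304 counts in the A549 VGF libraries. With empty vector it had 6, 6 and 3 counts in H1299, against 257, 277 and 263 counts in A549. NRXN3 passed the filter on low counts only through A549, so its calls between the lines are descriptions. MAP3K7, a kinase gene, was higher in H1299, at 161 CPM in H1299 and 52.1 CPM in A549 with VGF. INSR, whose exon choice muscleblind proteins regulate, averaged 2.88 CPM in H1299 and 22.8 CPM in A549 with VGF.

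The genes whose pattern over the 12 libraries was most like that of KHDRBS3 were sought by Pearson's r of log2 CPM among 12999 features, as a description. The highest values were those of SHISA3 (0.988), GNAI1 (0.967), ABCA1 (0.962), FBN2 (0.958) and SOX2 (0.957). SHISA3 averaged 0.276 CPM in H1299 with VGF and 0.399 CPM in H1299 with empty vector, against 1.05 CPM in A549 with VGF and 15.7 CPM in A549 with empty vector. The lowest values were those of CDCA7L (-0.966), CNN3 (-0.962), H2AFV (-0.962), POLA2 (-0.957) and MAP4K2 (-0.944). CDCA7L averaged 58.2 and 58.3 CPM in H1299 with VGF and with empty vector, against 43.6 CPM in A549 with VGF and 31.5 CPM in A549 with empty vector. The points share 4 groups and a large difference between lines, and the names depended on the measure, since 0 of the 10 were named with Spearman's rho and 4 with log2(FPKM + 0.1). Among the members, r with KHDRBS3 ran from -0.839 for KHDRBS1 to 0.765 for MBNL2. The tested genes within 2000000 bases of KHDRBS3 were ZFAT and ST3GAL1. ZFAT had a log2 fold change with VGF of 0.01 in both H1299 and A549 (adjusted p = 1.0 in each). ST3GAL1, a sialyltransferase gene, had -1.78 (SE 0.745, adjusted p = 0.609) in H1299 and -0.32 (SE 0.228, adjusted p = 0.604) in A549. Its H1299 libraries held few counts, 16, 3 and 8 with VGF against 5, 73 and 21 with empty vector. In A549 it had 78.7, 81.4 and 80.8 CPM with VGF, against 103.8, 100.9 and 95.85 CPM with empty vector. Those A549 groups did not overlap, as for 18.4% of all features.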

How the data were processed

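Messenger RNA was selected with capture beads, per the labels' protocols. The authors deposited whole-number counts, with no scaling, and FPKM, which adjusts them for gene length and sequencing depth. GRCh38 and DESeq2 are named in the submitters' processing notes. Aligner, counting tool, annotation and use of strand were not given in the sources used here. In each table, 18 stray text lines were dropped and 27 date-like symbols were set back from their IDs. Coordinates are 1-based GRCh38 from GENCODE release 29, which held all 19974 Ensembl IDs of the tables.

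Counts were tested with edgeR 4.0.16 in R 4.3.3 (quasi-likelihood F test, TMM, filterByExpr by group, Benjamini-Hochberg over the 18228 features left) in a fit of 4 group means over 12 libraries, without a block. The contrasts were VGF over empty vector in each line, the difference of those effects (H1299 minus A549), and H1299 over A549 under each vector. Every adjusted p is from this fit unless another tool is named. A feature is called at an adjusted p under 0.05. Standard errors come from the F statistic, and 95% intervals use 12.4 degrees of freedom. Groups with few counts are compared by ratios of summed counts with exact binomial intervals. Intervals and floors cover counting error only, and reads without molecular identifiers are not independent molecules. Alternatives were RLE and upper-quartile scaling, no filter, DESeq2 1.42.0, limma 3.58.1 (voom, and log2 of FPKM with a pseudocount of 1 or 0.1), each line alone, a replicate block and leaving out each library. The fits were tested on simulated data.

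No replicate pair agreed within sampling noise, with chi-square per degree of freedom of 7.82 to 21.8 over 12 pairs. The members and the lists (7 of genes, 6 of cell type markers) were chosen with earlier results of these data known. All members are named. Of each other list, up to 3 called genes per direction with the largest fold change and at least 1 CPM in a group could be named, along with the 5 genes most and least like KHDRBS3 and tested genes within 2000000 bases of it. CDH1, GRHL2 and the single lung markers were named after their values were seen. P-values measure the spread between these libraries.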

Additional observations from a re-analysis of the deposited data

Results flagged for a closer look

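The effect of VGF differed between the lines for VGF itself by a test of the difference. NRXN3 was called too, but it passed the filter on low counts only through A549, so that call is a description. For KHDRBS3 the effect in H1299 minus that in A549 was 2.34 on the log2 scale, a description with no p because the gene was chosen for its A549 fall. It was 2.15 to 2.67 when libraries were left out in turn, and edgeR did not call it in 9 of those 12 fits, all but the ones without A549 VGF replicate 2, A549 empty vector replicate 3 or H1299 VGF replicate 2. Limma voom did not call it. Nothing is read from these calls in either direction, because the fits use the A549 values that chose the gene. For VGF itself the difference was -5.52 on the log2 scale (SE 0.157, edgeR adjusted p = 1.49e-09), with 886, 941 and 1114 CPM in the H1299 VGF libraries against 77.2, 90.5 and 89.0 CPM with empty vector, and 1361, 1201 and 1287 CPM in the A549 VGF libraries against 2.74, 2.54 and 2.02 CPM with empty vector. For NRXN3 the difference had an adjusted p of 0.0181. It rests on 0 counts in H1299 with VGF against 15 counts in H1299 with empty vector, at least 4.68-fold lower against the floor, while A549 had 955 counts with VGF against 797 with empty vector. It was not called without H1299 empty vector replicate 2 (adjusted p = 0.0522), with limma voom (0.166), on FPKM (0.641 to 0.739) or with the replicate block (0.0857).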

How the results depend on the processing

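Depth limits ESRP2, and MBNL3 and ESRP1 in A549. Beside 144 features called in A549, DESeq2 called 729, limma voom 334, FPKM without a filter 247 and the replicate block 63. In H1299, beside 2, they called 139, 1, 4 and 1, while no filter gave 5, FPKM with a filter and a pseudocount of 1 gave 4 and the line alone gave 4. For the difference of effects, beside 29, DESeq2 called 310 and voom 19. Members called were 2 with DESeq2 in A549 (KHDRBS1 and KHDRBS3) and 0 with voom for the difference. Named likeness genes shared were 0 with Spearman's rho and 4 with FPKM. Leaving out each library gave 52 to 130 features in A549, 1 to 4 in H1299, 18 to 36 for the difference, 13610 to 14346 between lines with empty vector and 13638 to 14230 with VGF. Members called were then 1 in A549, 0 in H1299, 0 to 1 for the difference and 7 to 8 between lines under each vector.

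Some directions turned. QKI in A549 was 0.11 on FPKM, and in the difference -0.077 and -0.082. KHDRBS1 in H1299 was 0.005 with RLE, DESeq2 and the line alone. MBNL3 on FPKM was 0.14 and 0.27 in H1299 and 0.10 in the difference, against -2.70 on counts. Between lines, ESRP2 with empty vector was -0.034 with the block. MBNL1 on FPKM was 0.11 and 0.12 with empty vector and 0.028 and 0.029 with VGF. RBFOX2 with VGF was 0.003 with RLE and DESeq2, 0.005 without a filter, 0.12 with upper-quartile scaling (adjusted p = 0.0136) and 0.325 and 0.339 on FPKM. Upper-quartile scaling moved the median of all features between lines to 0.11, and a pseudocount of 0.1 on FPKM moved it to 0.19. MBNL1 between lines was then -0.02 with empty vector and -0.05 with VGF, uncalled. Leaving out libraries turned, at the extremes, QKI (-0.107 to 0.078), MBNL1 (-0.062 to 0.002) and MBNL2 (-0.017 to 0.102) in A549, KHDRBS1 (-0.02 to 0.006) and MBNL3 (-0.18 to 0.046) in H1299, and ESRP2 with empty vector (-0.165 to 0.22) and RBFOX2 with VGF (-0.016 to 0.024) between lines. The cause was not tested.

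Replicate numbers did not pair the libraries. Deviations of same-numbered libraries within a line correlated at -0.104 to 0.0373 over 6 pairs. With the replicate block, ESRP2 between lines with VGF was not called (1.95, adjusted p = 0.0516), and no other member's call changed.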
